A study of Mus musculus with 12 samples.

Results

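The Cyp4a genes encode cytochrome P450 enzymes of the endoplasmic reticulum that hydroxylate the methyl end (the omega carbon) of fatty acids. The set described here is the list of Cyp4a10, Cyp4a12a, Cyp4a12b, Cyp4a14, Cyp4a31 and Cyp4a32, chosen by name. A gene was measured where a probe set of the array carried its symbol and no other. By this rule 4 of the 6 members were measured, Cyp4a12a, Cyp4a12b, Cyp4a14 and Cyp4a31, each by 1 probe set, among 22180 measured genes. Cyp4a10 and Cyp4a32 had no probe set of their own and were covered only by 2 probe sets that each carried a pair of Cyp4a symbols.

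Each of 12 arrays held liver RNA of a single male C57BL/6 mouse, with 3 mice in each of 4 groups. Wild-type (WT) mice and mice deficient in AHNAK (KO), a very large scaffold protein, were matched by weight and kept for 8 weeks on regular chow or on a high-fat diet with 60% fat (HFD). The 4 groups were thus both genotypes on both diets, and no further allele or agent was named. The sources used here do not say how the AHNAK allele was made, how old the animals were or in which batches mice and arrays were handled. The design asks how KO and WT livers differ on each diet. The diet responses, their difference between genotypes and the comparison of KO on HFD with WT on chow place the Cyp4a genes over all 4 groups.

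Omega-hydroxylation is a side route of fatty acid breakdown. The hydroxylated fatty acid is oxidised further by alcohol and aldehyde dehydrogenases to a dicarboxylic acid, which is shortened in peroxisomes. In mouse liver Cyp4a10 and Cyp4a14 are textbook targets of PPAR alpha, the nuclear receptor that senses fatty acids, and Cyp4a31 and Cyp4a32 are close relatives of Cyp4a10. Cyp4a12a and the nearly identical Cyp4a12b are known for higher expression in males and for turning arachidonic acid into the signalling lipid 20-HETE.

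All 6 genes lie in 1 stretch of chromosome 4 in RefSeq, with Cyp4a30b between them. Because PPAR alpha and the growth hormone factor STAT5 are known regulators of liver P450 genes, the start of a member is shown here for reference. The RefSeq promoter table (GRCm38.p6) held 1 of the 6 members, Cyp4a32. The 250 bases before its start, at chr4:115600688-115600937 on the plus strand, were read 5′ to 3′ as follows.
Cyp4a32: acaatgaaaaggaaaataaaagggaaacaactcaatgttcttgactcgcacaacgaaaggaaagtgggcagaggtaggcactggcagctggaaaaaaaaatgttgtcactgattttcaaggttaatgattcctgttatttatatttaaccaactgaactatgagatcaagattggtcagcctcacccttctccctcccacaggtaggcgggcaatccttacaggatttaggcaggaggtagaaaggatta
No base is in capitals, because none of the motifs searched was found. The search covered 250 bases before and 50 bases after the start on both strands. The full peroxisome proliferator response element, AGGTCA and AGGTCA with 1 free base between them, was present in 0.0396% of the 32851 promoters in the table. Its looser form, AGGNCA and AGGNCA with the same spacing, which includes the full one, was present in 0.381%, and the STAT site TTCNNNGAA, which is its own reverse complement, in 8.3%. Among 29 PPAR alpha targets in the table, Fabp1 held the looser element on the minus strand, and 0 held the full one. Read on the plus strand, the Fabp1 match is TGACCTATGGCCT at chr6:71199812-71199824, starting 67 bases before the gene. A match is a description of letters and not a site of binding, and no match says only that these letters are not in this window.

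The deposited values were log2 signals from 1.40 to 14.36, and array medians ran from 5.58 to 5.70. With 3 arrays a group, that number limits how precise each value is. Across genes, arrays of 1 group correlated with r between 0.992 and 0.994. The 3 WT HFD arrays stood apart, with scores of 30.0 to 32.3 on the first principal component (32.2% of the variance) against -18.5 to -3.95 on the other 9. The same held for an index of clock genes, the mean log2 signal of Dbp, Tef, Nr1d1, Nr1d2, Per3 and Ciart minus that of Arntl, Npas2, Clock and Cry1. The index was 0.72 to 1.20 on the WT HFD arrays and -1.26 to 0.17 on the others. The probe set of Ahnak gave a KO minus WT difference of -0.04 ± 0.14 (SE) on chow (limma adjusted p = 0.971). The sources used here do not say which part was deleted, so this signal checks nothing. Over all genes limma called 862 higher and 1469 lower in KO than WT on HFD, and 891 higher and 652 lower on HFD than chow in WT. With each array centred on its median these splits were 545 and 1937, and 1089 and 457. Without WT HFD 3 the first comparison held 1506 calls. The second held 815 without WT chow 3 and 860 to 935 without any 1 of the WT HFD arrays.

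Hepatocyte markers marked the tissue as labelled. All 8 were measured, with a summed signal of 16.65 to 16.76 (log2) over the 12 arrays. Kidney is the other organ known for Cyp4a genes, and its 6 tubule markers summed to only 7.45 to 7.70. For comparison, 9 genes with no known role in liver had mean signals of 3.07 to 5.58 and summed to 7.82 to 8.11. The mean of the kidney list was 4.77 to 4.99 over the 12 arrays, against 4.47 to 4.72 for these 9 genes. In whole-liver RNA, fewer cells of a type and less RNA per cell cannot be told apart.

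In WT mice the high-fat diet went with lower signals of the Cyp4a genes. All 4 measured members fell, Cyp4a12b by the most (10.2-fold) and Cyp4a14 by the least (1.22-fold). Over all genes limma called 2.94% lower in this comparison. The HFD arrays of each member lay below all its chow arrays, as did those of 12.2% of all genes, and the median difference of the members was -1.63 against 0.0033 over all genes (log2). In KO mice none of the members passed with the diet, as given further on.

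Cyp4a12b, an arachidonic acid omega-hydroxylase, had log2 signals of 12.05, 12.14 and 12.00 in chow-fed WT livers and 8.61, 8.95 and 8.57 in HFD-fed WT livers. In KO livers it read 11.65, 11.99 and 11.20 on chow and 11.63, 11.79 and 12.04 on HFD. The 3 WT HFD livers lay far below the other 9, and the groups of WT mice did not overlap. The WT means were 12.07 ± 0.068 (SD, n = 3) on chow and 8.71 ± 0.21 on HFD. The difference was -3.36 ± 0.18 (SE, limma adjusted p = 2.48e-06), the lowest of the 22180 differences in that comparison.

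Cyp4a31, a relative of the PPAR alpha target Cyp4a10, read 12.94, 13.00 and 12.83 in WT livers on chow and 11.07, 11.37 and 11.11 on HFD. In KO it read 12.91, 12.88 and 12.96 on chow and 13.22, 12.68 and 13.09 on HFD. Again the 3 WT HFD livers were the low ones, and the KO HFD livers spread around the levels of both chow groups. The mean fell by 1.74 on the log2 scale (SE 0.13), from 12.92 ± 0.084 (SD, n = 3) to 11.19 ± 0.16 in WT (limma adjusted p = 1.6e-05).

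Cyp4a12a, whose enzyme makes 20-HETE, read 9.39, 9.82 and 9.67 in WT livers on chow and 7.89, 7.78 and 8.66 on HFD. In KO it read 9.14, 9.12 and 9.16 on chow and 9.37, 9.19 and 8.96 on HFD. The WT HFD livers were below all others, but the third of them lay nearer to the KO livers than its group mates did. The mean in WT fell by 1.52 on the log2 scale (SE 0.20), from 9.63 ± 0.22 (SD, n = 3) to 8.11 ± 0.48 (limma adjusted p = 0.001).

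Cyp4a14, the textbook PPAR alpha target of the set, read 13.85, 13.86 and 13.90 in WT livers on chow and 13.57, 13.61 and 13.57 on HFD. In KO it read 13.81, 13.86 and 13.94 on chow and 13.85, 13.76 and 13.92 on HFD. The WT HFD livers were again the lowest, with a narrow gap to the rest. The mean in WT fell by 0.28 on the log2 scale (SE 0.075), from 13.87 ± 0.027 (SD, n = 3) to 13.58 ± 0.024 (limma adjusted p = 0.043). This call was lost in 15 of 23 alternative settings, among them the 2-fold minimum, which a difference of this size cannot pass. It was lost without any 1 array of either WT group or of the KO chow group, with an adjusted p of up to 0.13. Cyp4a14 lay 0.39 to 0.77 below the brightest probe set of its array, and only 0.0314% to 0.198% of probe sets were brighter. The part of this position near the top of the range in the small difference was not tested.

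**Figure D1:**
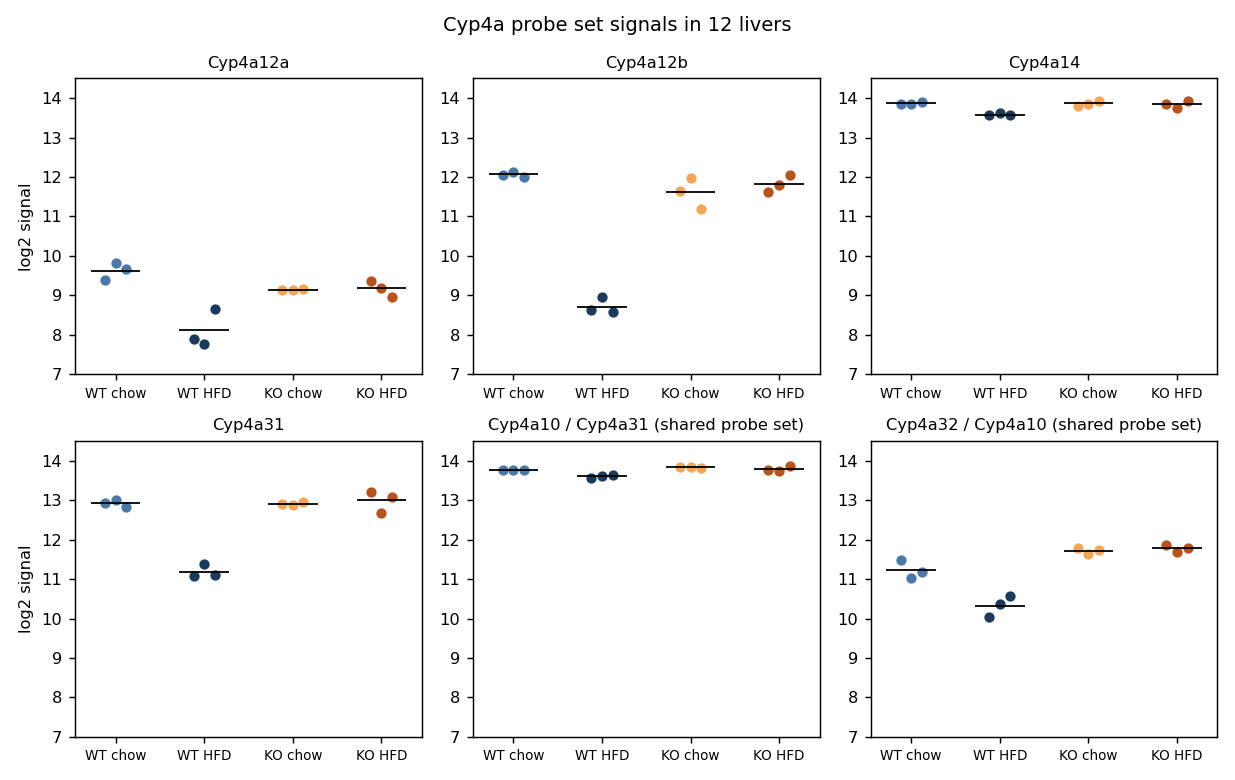
Log2 signal (y axis) of the 4 Cyp4a genes with a probe set of their own and of the 2 probe sets shared by a pair of Cyp4a symbols, in 12 mouse livers by group (x axis); each point is 1 array and each line a group mean. Cyp4a12b reads 8.57 to 8.95 in WT on HFD and 11.20 to 12.14 in the other groups, whereas Cyp4a14 stays between 13.57 and 13.94 in all groups.

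Between genotypes on HFD all 4 measured members were higher in KO than in WT, with no overlap of arrays for any of them. Limma called 3.89% of all genes higher here, and 13% of all genes had KO arrays that all lay above the WT arrays. The members' median difference was 1.44, against 0.0011 over all genes. These differences rest on the same WT HFD arrays as the diet difference in WT, so both carry the low values of those 3 livers.

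Cyp4a12b rose from 8.71 ± 0.21 in WT to 11.82 ± 0.21 (SD, n = 3) in KO on HFD, by 3.11 ± 0.18 (SE, limma adjusted p = 1.4e-06) or 8.64-fold. It had the 4th highest KO minus WT difference of all 22180 genes on that diet. Cyp4a31 rose 3.51-fold, from 11.19 ± 0.16 to 13.00 ± 0.28 (adjusted p = 8.35e-06), and ranked 29th. Cyp4a12a rose 2.09-fold, from 8.11 ± 0.48 to 9.17 ± 0.20 (adjusted p = 0.00493), and ranked 93rd. These 3 calls held in every alternative setting tried, with adjusted p values of at most 0.026. Cyp4a14 rose by 0.26 ± 0.075 (SE, limma adjusted p = 0.0495), which is 1.19-fold, from 13.58 ± 0.024 to 13.84 ± 0.079. Its call was lost without any 1 of the 12 arrays, with an adjusted p of 0.0562 to 0.141, and in 20 of 23 settings in all. These settings include the 2-fold minimum, which a 1.19-fold difference cannot pass. Whether the folds differed between the members was not tested.

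**Figure D2:**
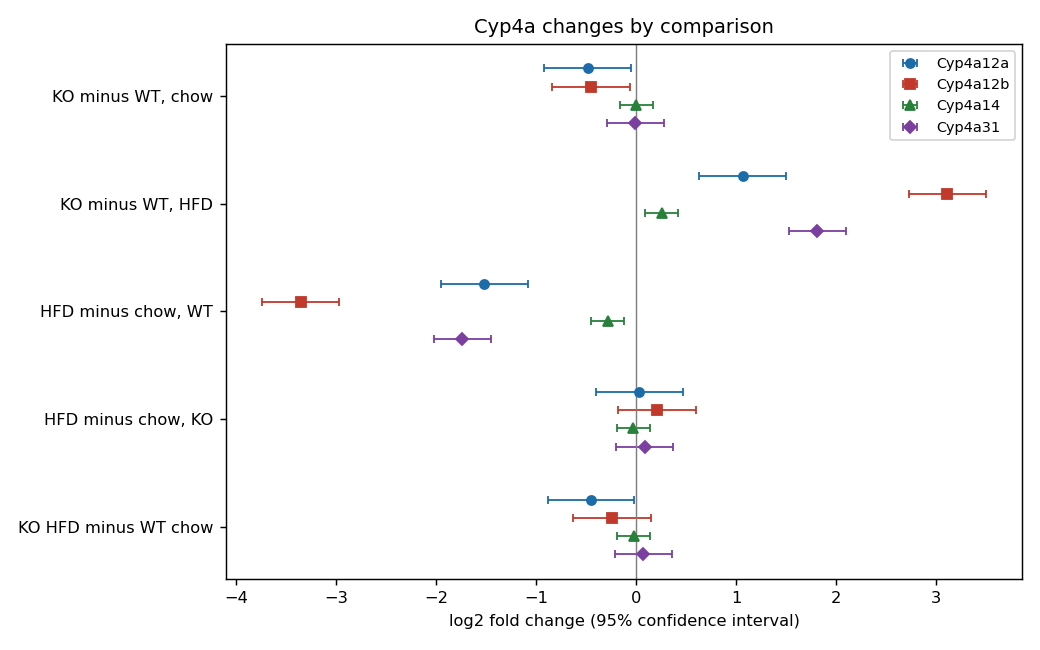
Differences in log2 signal (x axis) of Cyp4a12a, Cyp4a12b, Cyp4a14 and Cyp4a31 in 5 comparisons of groups of 3 livers; points are limma estimates and bars their 95% confidence intervals. Cyp4a12b stands at -3.36 for HFD minus chow in WT and at 3.11 for KO minus WT on HFD, while in KO the interval of its diet difference runs from -0.18 to 0.60.

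In KO mice the diet difference of the Cyp4a genes was small. Limma called 0 of the 4 members at the adjusted threshold, where 0.243% of all genes were called, and 0 at an unadjusted p under 0.05. The arrays overlapped for all 4, while 13.8% of all genes had groups that did not overlap. With shares this low, counts of 0 among 4 genes are no result about the members. The size of each difference is read from its interval. Cyp4a12b differed by 0.21 (95% interval -0.18 to 0.60), Cyp4a31 by 0.08 (-0.20 to 0.37), Cyp4a12a by 0.03 (-0.40 to 0.47) and Cyp4a14 by -0.03 (-0.19 to 0.14). For Cyp4a12b, Cyp4a31 and Cyp4a12a these intervals lie above the intervals of the diet difference in WT. For Cyp4a12b the latter ran from -3.74 to -2.97, for Cyp4a31 from -2.02 to -1.45 and for Cyp4a12a from -1.95 to -1.08.

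The difference of the differences, KO minus WT on HFD less KO minus WT on chow, was tested as an interaction. It passed for 3 of 4 members, where limma called 1.43% of all genes in that direction. It was 3.56 ± 0.25 (SE, adjusted p = 2.26e-05) for Cyp4a12b, 1.82 ± 0.18 (0.000271) for Cyp4a31 and 1.55 ± 0.28 (0.0121) for Cyp4a12a. Cyp4a14 stood at 0.26 ± 0.11 (limma adjusted p = 0.235, unadjusted p = 0.0333). With a trended prior and robust settings it passed too, at an adjusted p of 0.0377.

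On chow none of the members passed between KO and WT. Limma called 0 of 4 at the adjusted threshold, where 0.00902% of all genes were called, so this count is no result about the members. At an unadjusted p under 0.05 there were 2, and the share of all genes at that threshold was not counted. Those 2 were the pair of arachidonic acid hydroxylases, both with every KO array below every WT array, as was the case for 7.29% of all genes. Cyp4a12a averaged 9.14 ± 0.020 (SD, n = 3) in KO and differed by -0.48 (95% interval -0.92 to -0.05, limma adjusted p = 0.659). Cyp4a12b averaged 11.61 ± 0.39 in KO and differed by -0.45 (-0.84 to -0.065, adjusted p = 0.642). Cyp4a31 differed by -0.01 (-0.30 to 0.27), and Cyp4a14 had equal means of 13.87 in both genotypes (interval of the difference -0.16 to 0.16).

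Livers of KO mice on HFD were also set against those of WT mice on chow. Limma called 0 of 4 members at the adjusted threshold and 0.32% of all genes, so this count is no result about the members. At an unadjusted p under 0.05 there was 1 gene, and the share of all genes at that threshold was not counted. Cyp4a12a was that gene, at -0.45 (95% interval -0.89 to -0.018, adjusted p = 0.545), and its KO HFD arrays all lay below its WT chow arrays, as did those of 6.53% of all genes. The other three differed by -0.24 (Cyp4a12b, -0.63 to 0.14), -0.03 (Cyp4a14, -0.19 to 0.14) and 0.07 (Cyp4a31, -0.21 to 0.36).

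The order of the group means can be read from these values. For Cyp4a12a and Cyp4a12b it ran from WT on chow through KO on HFD and KO on chow down to WT on HFD. For Cyp4a31 it ran from KO on HFD through WT on chow and KO on chow to WT on HFD. For Cyp4a14 both chow groups shared a mean of 13.87, with KO on HFD at 13.84 and WT on HFD at 13.58. In all 4 genes WT on HFD was the lowest group, and no pair among the other three groups passed the test in the comparisons made.

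The probe sets shared by several symbols were fitted with all 41345 probe sets of the table, since they belong to no single gene. The probe set carrying Cyp4a32 and Cyp4a10 read 11.49, 11.03 and 11.19 in WT livers on chow and 10.04, 10.37 and 10.56 on HFD. Its KO values were 11.78, 11.64 and 11.73 on chow and 11.87, 11.68 and 11.79 on HFD. It was lowest in WT on HFD, and unlike the 4 single-gene probe sets its KO livers all lay above its WT livers on chow as well, as for 5.54% of all probe sets and for the other shared probe set. On HFD it rose by 1.46 ± 0.15 (SE) in KO over WT (limma adjusted p = 0.00047), a 2.75-fold difference, where 2.02% of all probe sets were called higher and 12% did not overlap in that direction. In WT it fell by 0.91 on the log2 scale with the diet (adjusted p = 0.0099), where 1.3% were called lower and 10.9% did not overlap in that direction. On chow it stood at 0.48 ± 0.15 in KO over WT (adjusted p = 0.739, unadjusted p = 0.00779), where 0.00726% of all probe sets were called, and its interaction was 0.98 ± 0.21 (adjusted p = 0.0547).

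The probe set carrying Cyp4a10 and Cyp4a31 passed in none of the 6 comparisons. It read 13.77, 13.78 and 13.77 in WT livers on chow and 13.57, 13.61 and 13.65 on HFD. Its KO values were 13.85, 13.84 and 13.81 on chow and 13.76, 13.73 and 13.87 on HFD. The WT HFD livers lay below all others, but neither the diet difference in WT (-0.16 ± 0.072, limma adjusted p = 0.297) nor KO minus WT on HFD (0.18 ± 0.072, adjusted p = 0.213) passed. Like Cyp4a14 it lay near the top of the array, with 0.0556% to 0.181% of probe sets brighter. In this fit of all probe sets Cyp4a14 missed the threshold in both comparisons, at adjusted p values of 0.0894 and 0.0833, while the other three kept their calls. Cyp4a12a and Cyp4a12b are close copies of each other, as are Cyp4a10, Cyp4a31 and Cyp4a32. How far a probe set also reads its nearest relative cannot be told apart here, so the values of single members are uncertain to that extent.

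None of the genes around the cluster passed the test. RefSeq order placed Tal1, Pdzk1ip1, Cyp4x1 and Cyp4a29 on one side, Cyp4b1, Efcab14, Tex38 and Atpaf1 on the other, and Cyp4a30b between Cyp4a12b and Cyp4a14. Limma called 0 of these 9 in any of the 6 comparisons. With 3.89% of all genes called higher and 6.62% lower in KO over WT on HFD, a count of 0 among so few genes is no result about the neighbours. In KO minus WT on HFD 1 was higher and 1 lower at an unadjusted p under 0.05. These were Tex38 at 0.40 ± 0.14 (SE, adjusted p = 0.09) and Efcab14 at -0.22 ± 0.085 (adjusted p = 0.139). The other Cyp4a genes of the stretch, Cyp4a29 (group means 3.80 to 4.09) and Cyp4a30b (4.76 to 4.87), lay at the level of genes not expressed in liver.

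**Figure D3:**
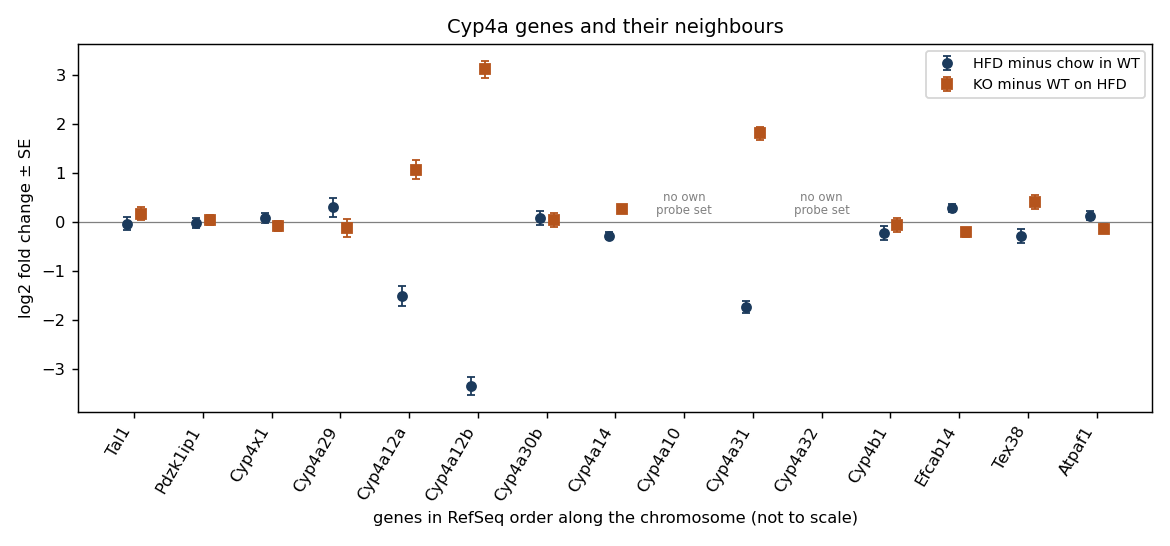
Log2 differences ± SE (y axis) of the genes in and around the Cyp4a cluster, in RefSeq order along chromosome 4 (x axis), for HFD minus chow in WT and for KO minus WT on HFD, 3 livers per group; a gene without a probe set of its own has no point. Cyp4a12a, Cyp4a12b and Cyp4a31 stand out on both sides of 0, with Cyp4a12b at -3.36 and 3.11, and none of the 9 measured neighbours was called.

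The wider pathway was read from lists of known genes, whose counts stand against the shares of all genes called. In KO over WT on HFD limma called 3.89% of all genes higher and 6.62% lower, and with the diet in WT 4.02% higher and 2.94% lower. Of 36 listed PPAR alpha targets, most but not all of them genes of fatty acid oxidation, 34 were measured. In KO over WT on HFD 14 rose, 0 fell and 20 did not pass, with a median of 0.22. Without WT HFD 3, 9 rose. Ehhadh, the peroxisomal bifunctional enzyme that shortens dicarboxylic acids, rose by 1.11 ± 0.094 (SE, limma adjusted p = 2.92e-05). The hepatokine gene Fgf21 rose by 1.95 ± 0.30, the sterol hydroxylase gene Cyp8b1 by 0.96 ± 0.11, and the carnitine palmitoyltransferase gene Cpt1a by 0.51 ± 0.079. Fabp1, a fatty acid binding protein gene, stood at 0.013 ± 0.081 (adjusted p = 0.952). With the diet in WT 0 rose and 15 fell (9 without WT HFD 3), with a median of -0.30, including Ehhadh at -1.09 ± 0.094 and Fgf21 at -1.57 ± 0.30. With the diet in KO limma called 0 of 34, beside 0.243% of all genes, a count that is no result about the list. At an unadjusted p under 0.05, 5 were higher and 3 lower, without a share of all genes to set beside them.

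The partners of omega-oxidation were called in both directions, as were genes overall. Of 22 listed genes 17 were measured, and Por, the reductase that feeds electrons to P450 enzymes, was not among them. In KO over WT on HFD 2 rose and 5 fell, with a median of -0.0017. Ehhadh and the alcohol dehydrogenase gene Adh7 rose, the latter by 1.14 ± 0.15 (SE, limma adjusted p = 0.000613). Abcd2, a peroxisomal fatty acid transporter, fell by 2.15 on the log2 scale (SE 0.34, adjusted p = 0.00186), and Cyb5r3, cytochrome b5 reductase, by 0.44 (SE 0.096, adjusted p = 0.0116). The count of 5 rested on single livers and was 1 to 3 without any 1 of the WT HFD or KO chow arrays, KO HFD 2 or KO HFD 3. With the diet in WT 0 rose and the same pair, Ehhadh and Adh7 (-0.95 ± 0.15), fell.

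Of 26 known regulators of Cyp4a genes 23 were measured, and in KO over WT on HFD 2 rose and 3 fell beside 3.89% and 6.62% of all genes. Counts this small are no result about the regulators as a group. Socs2, a STAT5-induced brake on growth hormone signalling, rose by 2.25 ± 0.22 (SE, limma adjusted p = 8.82e-05), and Ppargc1a, a coactivator of PPAR alpha, by 1.19 ± 0.18 (adjusted p = 0.0015). The growth hormone receptor gene Ghr fell by 0.46 on the log2 scale (SE 0.099, adjusted p = 0.011) and Pparg, a nuclear receptor of lipid storage, by 1.77 (SE 0.49, adjusted p = 0.037). The count of 3 was 1 without any 1 of the WT HFD or KO HFD arrays. The transcript of PPAR alpha itself, Ppara, stood at -0.14 ± 0.087 (adjusted p = 0.386), its partner Rxra at -0.12 ± 0.083 (0.45) and Stat5b at -0.15 ± 0.12 (0.521). With the diet in WT Socs2 (-2.07 ± 0.22) and Ppargc1a (-0.76 ± 0.18) fell and 0 regulators rose. That count of 2 was 1 without any 1 of the WT HFD arrays, WT chow 2 or WT chow 3. On chow between genotypes, and with the diet in KO, 1 regulator was called, beside 0.00902% and 0.243% of all genes. In both it was Cux2, a repressor of male-biased genes that is also on the female-biased list. It stood 0.79 ± 0.088 higher in KO than WT on chow (limma adjusted p = 0.0254) and fell by 0.77 on the log2 scale with the diet in KO (adjusted p = 0.00241). The chow call was lost without any 1 of WT chow 2 and 3, WT HFD 1 and 2, KO chow 2 and 3, and KO HFD 1 and 2.

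The other Cyp4 genes, all 14 measured, include the Cyp4f hydroxylases. In KO over WT on HFD 1 rose, Cyp4f17, by 0.62 ± 0.087 (SE, limma adjusted p = 0.000925), and 0 fell (1 without KO HFD 1), near the shares of 3.89% and 6.62% over all genes. With the diet in WT 3 fell, Cyp4f17 (-0.70 ± 0.087), Cyp4f13 (-0.41 ± 0.082) and Cyp4f39 (-0.49 ± 0.091). The median of the list was -0.073 in the first comparison and -0.0047 in the second.

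Because Cyp4a12a and Cyp4a12b are known as male-biased genes, the sex-biased liver genes were set beside them, without the Cyp4a genes. Of 18 measured male-biased genes 12 rose and 2 fell in KO over WT on HFD (median 0.67), and 2 rose and 9 fell with the diet in WT (median -0.63). The complement gene C6 read 2.00 ± 0.093 (SE) and -1.72 ± 0.093 in these comparisons, and Cyp7b1, an oxysterol hydroxylase gene, 2.66 ± 0.24 and -2.16 ± 0.24. Moxd1 differed from the Cyp4a pattern, with 4.80 ± 0.29 in KO over WT on HFD and 0.014 ± 0.29 (limma adjusted p = 0.988) with the diet in WT. Of 19 measured female-biased genes 9 fell and 0 rose in KO over WT on HFD (1 rose without WT chow 1), and 5 rose and 1 fell with the diet in WT. With the diet in KO, where limma called 0.243% of all genes, 5 female-biased genes fell (median -0.64) and 4 male-biased genes rose (median 0.61). The latter count was 2 without KO chow 2 and 6 without WT chow 1. On chow, where limma called 0.00902% of all genes, 2 female-biased genes, Cux2 and Fmo2, were called higher in KO. That count was 0 without any 1 of the 8 arrays just named for Cux2 and 1 without WT chow 1 or WT HFD 3. Of the 18 male-biased genes 0 were called on chow, a count that is no result about the list. Their median in KO over WT on chow was -0.44. At an unadjusted p under 0.05, 9 of them were lower and 0 higher, without a share of all genes to set beside them. The P450 gene Cyp2b13, also on the female-biased list, fell by 4.89 on the log2 scale (SE 0.31) in KO over WT on HFD. It rose by 4.60 with the diet in WT. The mean signal of the male-biased list, whose genes were called in both directions, was 9.84 to 9.96 in WT on HFD and 9.90 to 10.27 in KO on chow, so these ranges overlapped. In WT on chow it was 10.41 to 10.81 and in KO on HFD 11.04 to 11.08. As given above, the WT HFD livers stood apart on the clock index and on the first principal component, which takes in all genes, the Cyp4a genes among them. The part of the clock genes and of the sex-biased genes in the Cyp4a differences was not tested.

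**Figure D4:**
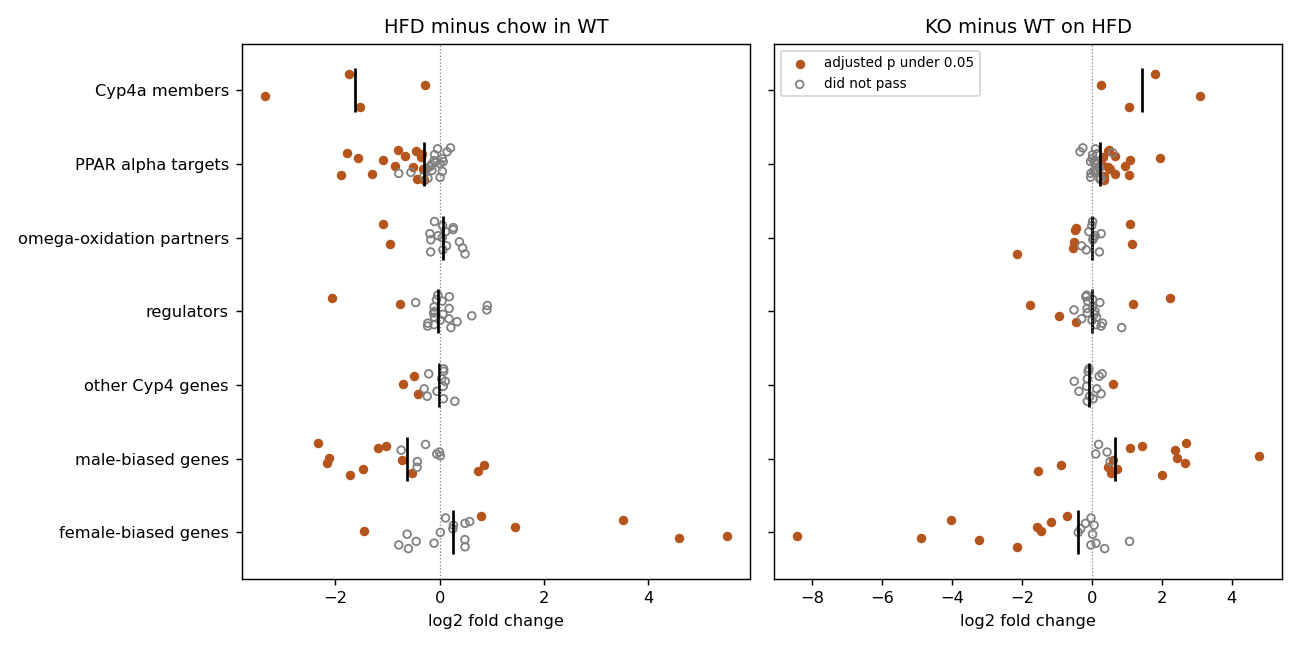
Log2 differences (x axis) of the 4 measured Cyp4a genes and the members of 6 gene lists for HFD minus chow in WT and KO minus WT on HFD, 3 livers per group; each point is 1 gene, filled where the limma adjusted p was under 0.05, and each bar a median. The Cyp4a medians stand at -1.63 and 1.44, those of the PPAR alpha targets at -0.30 and 0.22 and those of the male-biased genes at -0.63 and 0.67.

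Markers of other cell types were read in the same livers. Of 5 macrophage markers limma called 0 in KO minus WT on HFD, beside 3.89% of all genes higher and 6.62% lower. With the diet in WT it called 0 as well, beside 4.02% of all genes higher and 2.94% lower. Counts of 0 among 5 genes are no result about macrophages. At an unadjusted p under 0.05, 2 were lower in KO minus WT on HFD. With the diet in WT 4 of 5 were higher at that threshold, and the median was 0.40. These unadjusted counts have no share of all genes beside them. Their summed signal (log2) was 12.09 to 12.40 in WT and 11.89 to 12.17 in KO livers on HFD, and 11.78 to 12.02 and 11.79 to 12.07 on chow. Of 5 adipocyte markers 4 were measured, with sums of 14.05 to 14.06 in WT on HFD and 12.13 to 13.51 in KO on HFD. The hepatocyte-expressed Car3 made up most of that sum and fell by 1.31 in KO on the log2 scale (SE 0.29, limma adjusted p = 0.0117). Adipoq, a defining marker of fat cells, had group means of 4.73 to 4.86, at the level of genes not expressed in liver. The part of either cell type in the Cyp4a differences was not tested. Hepatocyte markers summed to 16.67 to 16.70 in WT on HFD and 16.67 to 16.74 in KO on HFD. In KO minus WT on HFD 1 of 8 was called higher, beside 3.89% of all genes, a count that is no result about hepatocytes.

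The genes whose log2 signals ran most alike over the 12 arrays were found for each member by Pearson's r, as a description. The arrays share 4 groups, with the WT HFD livers apart, so these values mostly rank genes by how they separate that group. For Cyp4a12a they were Mettl7b (0.978), Rab14 (0.929) and Zfp395 (0.925). For Cyp4a12b they were Serpina1e (0.983), an alpha-1 antitrypsin gene with close copies, C8b (0.973), which encodes a complement chain, and Elmod3 (0.971). For Cyp4a14 they were Rab30 (0.987), Gjc3 (0.953) and Tmed5 (0.952). For Cyp4a31 they were Pglyrp2 (0.987), a secreted peptidoglycan amidase gene, Serpina1e (0.976) and the lipid droplet coat gene Plin2 (0.976). Their KO minus WT differences on HFD ran from 0.21 for Rab14 (limma adjusted p = 0.105) to 1.56 for Gjc3. Among the members themselves Cyp4a12b and Cyp4a31 were most alike (r = 0.968) and Cyp4a12a and Cyp4a14 least (r = 0.795).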

How the data were processed

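Biotin-labelled RNA of 12 mouse livers was hybridised to arrays, per the labels. The authors deposited log2 signals for 41345 probe sets. The submitters' processing notes name oligo, with its version and method not given in the sources used here. They were used without further scaling or filter. Probe sets with 1 array-annotation symbol (23521) gave 22180 genes, by the highest mean where a gene had several. RefSeq (GRCm38.p6) served for names, gene order and the promoter.

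A model of 4 group means was fitted with lmFit and eBayes (limma 3.58.1, R 4.3.3), with Benjamini-Hochberg adjustment within each of 6 comparisons over all genes. Changes were called at an adjusted p under 0.05, and the code was tested on simulated data. Counts at an unadjusted p under 0.05 are description only, as the share of all genes at that threshold was not counted. Levels are means ± SD of 3 mice. Named were all members, the 3 most alike genes of each, up to 4 genes of each list by p in KO minus WT on HFD and any member as an example that did not pass, 4 neighbours a side, and Ahnak, Ppara, Rxra, Por and Stat5b. Cyp4f39, Car3, Adipoq and the clock genes were named after their values were seen. The members and lists were chosen with earlier results of these data known.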

Additional observations from a re-analysis of the deposited data

Results flagged for a closer look

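Limma called the KO minus WT difference to differ between the diets for 3 Cyp4a genes. On HFD less on chow it was 3.56 ± 0.25 (SE, adjusted p = 2.26e-05) for Cyp4a12b, 1.82 ± 0.18 (adjusted p = 0.000271) for Cyp4a31 and 1.55 ± 0.28 (adjusted p = 0.0121) for Cyp4a12a. In each of them the WT livers on HFD were the low group. Groups of 3 livers were too small for a search for single livers far from the rest.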

How the results depend on the processing

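The counts of changed members (4 in KO over WT on HFD, 4 with the diet in WT, 3 in the interaction) stayed within 1.5 times under every alternative that could be run. These were weights per array, a replicate block, a trended and robust prior, quantile normalization, median centring, only the brighter genes (above the median signal), a mean over a gene's probe sets, every probe set with a single symbol, only the arrays compared, a 2-fold minimum, leaving out each array and, chosen after seeing the data, all probe sets fitted together. Cyp4a12a, Cyp4a12b and Cyp4a31 kept all their calls, and every loss was Cyp4a14's. Its KO minus WT call on HFD held only with trend and robust settings, among the brighter genes and with the mean of probe sets. The last leaves the values of Cyp4a14 unchanged, as it has 1 probe set, and differences this small cannot pass the 2-fold minimum. Adjusted p values of this Cyp4a14 call ran from 0.00203 to 0.148 over all alternatives. Its diet call in WT ranged from 0.00156 to 0.13. Replicate numbers did not pair the livers, since 0 of 18 pairs of same-numbered livers had deviations correlated above 0.1 (r from -0.064 to 0.080). With the replicate block 3 members were called in each comparison on HFD or with the diet in WT, Cyp4a14 standing at 0.0724 and 0.0657. Counts over all genes moved more. They were 2331 for KO minus WT on HFD (295 at the 2-fold minimum), 1543 for the diet in WT (206), 783 for the interaction (432 to 718 without 1 array, split 318 and 465, or 221 and 623 after median centring) and 54 for the diet in KO (28 to 79 without 1 array). At the 2-fold minimum 3 PPAR alpha targets rose in KO over WT on HFD, and 9 when only the arrays compared were fitted. Cyp4a14 and the probe set carrying Cyp4a10 and Cyp4a31 lay near the top of the array range. The part of this position in their small differences was not tested. The number of 3 livers a group limits every interval.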
